A study of Mus musculus with 6 samples.

Results

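Heat shock proteins and their DnaJ co-chaperones are described here across whole testes of AROM+ and wild-type (WT) mice. The genes were chosen by name: every non-control probe whose gene name in the scanner files begins with Hspa, Hspb, Hspd or Hspe and a digit, with Hsp90 or Hsph1, or with Dnaja, Dnajb or Dnajc and a digit. This gave 71 genes with 108 probes, of 21881 named genes on the array. Of these genes 70 were tested, among 18856 genes tested in all. AROM+ mice are transgenic and overproduce aromatase, which makes oestrogens from androgens, and the labels give neither its promoter nor the species of its sequence. Both groups were 5 months old, male and of the C57BL/6 background, with 3 AROM+ and 3 WT testes, and RNA of 1 whole testis was hybridised to each one-colour Agilent array. The series' design text can be read as 3 mice per group, but the sample labels do not say that the testes came from separate animals, and p-values measure the spread between these testes, which may be technical.

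Heat shock proteins are chaperones: they hold, fold or hand over other proteins, and many rise when a cell is heated or its proteins unfold. The Hspa (HSP70) proteins work in cycles of ATP that are started by the J domain of a DnaJ protein, so each HSP70 depends on its DnaJ partners. The small heat shock proteins (Hspb) bind unfolded proteins without ATP, and Hspd1 with Hspe1 forms the folding chamber of mitochondria. The testis is known for its own set of chaperones, such as Hspa2 and Hspa1l, which are made in spermatocytes and spermatids beside the forms that most cells use.

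Between 76.6% and 80.6% of the spots of an array were well above background. Arrays correlated at r = 0.994 to 0.996 within WT, 0.986 to 0.991 within AROM+ and 0.949 to 0.979 between the groups, across genes, which are not independent replicates. All arrays lay on 1 slide, WT in row 1 and AROM+ in row 2, so that genotype and slide position cannot be told apart. All markers of testis cells listed here were tested. Their summed level is given as the range over arrays in multiples of the array's 75th percentile of intensity; the ranges of WT and AROM+ overlapped in the Leydig and endothelial lists and in no other, and the sums were not tested. For 6 round spermatid genes it was 45.5 to 49.2 in WT and 33.5 to 36.0 in AROM+, with 6 of 6 called lower. For 6 pachytene spermatocyte genes it was 49.8 to 51.1 in WT and 38.0 to 42.8 in AROM+, with 4 called lower, and for 6 elongating spermatid genes 176 to 250 and 153 to 161, with 2 called lower. For 8 macrophage genes it was 10.9 to 14.5 in WT and 28.3 to 44.2 in AROM+, with 7 called higher and 1 lower. For 6 fibroblast and matrix genes it was 13.6 to 18.7 and 26.5 to 37.7, with 6 of 6 called higher. The sums of 7 Sertoli genes were 24.1 to 29.7 and 36.5 to 40.1 (2 called higher), those of 6 Leydig genes 14.5 to 29.2 and 26.5 to 40.5 (3 higher), those of 6 peritubular and smooth muscle genes 10.4 to 12.8 and 12.95 to 15.6 (1 higher), and those of 6 endothelial genes 2.14 to 2.45 and 2.38 to 3.15 (5 higher, 1 lower). Inha was the brightest Sertoli gene, at a mean log2 level of 3.21 in WT and 4.15 in AROM+, and weighed most in that sum. Of the 7 Sertoli genes 5 were not called. In whole testes, fewer cells of a type and less RNA per cell cannot be told apart.

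Most of the chaperone genes that differed were lower in AROM+ testes, by small amounts, and 1 gene, Hspb8, was far higher. Values are log2 intensities minus the array's 75th percentile. Differences are AROM+ minus WT on that log2 scale with the standard error of limma, over 3 arrays per group unless stated, and "called" means an adjusted p under 0.05 (limma, Benjamini-Hochberg over all genes tested). Of the 70 genes 28 were called lower, which is 40% against 32.6% of all genes, and 7 were called higher, which is 10.0% against 19.9%. Together 35 were called (50%, against 52.4% of all genes). Of the 105 kept probes of these genes, 13 were called higher and 31 lower (12.4% and 29.5%, against 14.1% and 30.3% of all kept probes). The AROM+ values lay below all WT values in 40 genes (57.1%, against 40.2% of all genes) and above them in 8 (11.4%, against 23.4%), together 48 without overlap (68.6%, against 63.5%). The median difference was −0.21, against −0.14 over all genes. The falls among called genes ran from −0.26 to −1.004. For the 62 genes followed through the alternatives, a call lost or gained under another setting is given with that setting and its difference. Some genes outside the members were not followed, as stated where they appear. WT 1 is short for WT replicate 1, AROM+ 1 for AROM+ replicate 1, and so on. The count of falls depended on scaling and on single arrays: it was 13 with quantile normalization, which moved the median of all genes by 0.10 and their count to 4100 higher and 4010 lower, and 18 without WT replicate 1 or WT replicate 3. The count of rises was 4 without WT replicate 1 and 11 with array weights. No called gene changed sign under any of the 17 alternatives. Centring each array on its gene median gave 71.2% of all calls as lower, and quantile normalization 49.4%, against 62.1% here.

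**Figure D1:**
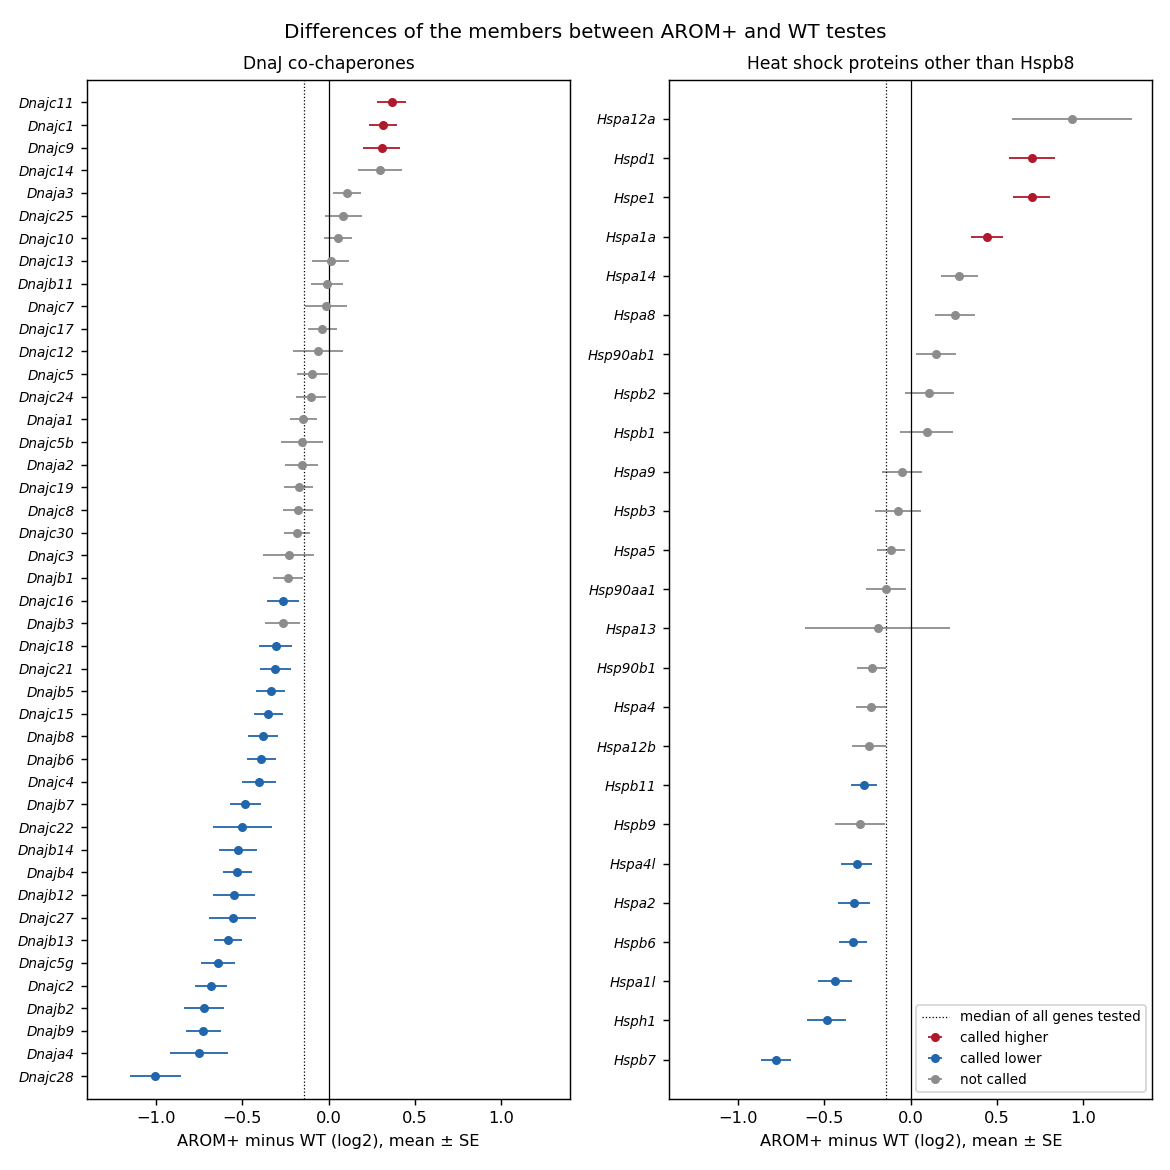
Difference between AROM+ and WT (log2, horizontal axis, mean ± SE from limma, 3 arrays per group, AROM+ replicate 1 missing for Hspb9) of 44 DnaJ genes on the left and 25 heat shock genes on the right, with Hspb8 (4.31) left out for scale. Red marks genes called higher, blue genes called lower and grey genes not called; the dotted line is the median of all genes tested, −0.14, and most blue points lie among the DnaJ genes.

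The falls were spread through the DnaJ genes: 21 of 44 tested were called lower and 3 higher (47.7% and 6.82%, against 32.6% and 19.9% of all genes), with a median difference of −0.25. Among the 26 heat shock genes 7 were called lower and 4 higher (26.9% and 15.4%), with a median of −0.13. Whether DnaJ and heat shock genes differ in this was not tested. Within the DnaJ genes 10 of 13 of the B class were called lower (76.9%, median −0.48) and 10 of 27 of the C class (37.0%, median −0.17). Of the C class 3 were called higher (11.1%), and of the B class 0. The B class holds the germ-cell isoforms Dnajb3, Dnajb7, Dnajb8 and Dnajb13, so it overlaps the germ-cell result given below. The calls of Dnajb6, Dnajb7, Dnajb8 and Dnajb14 were lost with quantile normalization.

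Hspb8 had the largest difference of all 70 genes tested. It encodes a small heat shock protein that works with the co-chaperone Bag3 in passing misfolded proteins to autophagy. Its probe (A_51_P464387, chromosome 5, 116859063 to 116859122, NCBI37/mm9) begins at its 5′ end with these 30 of its 60 bases, shown because the report's largest change rests on this 1 probe:

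Hspb8 probe: gggaggtttttcttcatcttatctgggtga

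The WT arrays read −5.23, −5.10 and −4.86, and the AROM+ arrays −0.24, −0.60 and −1.43. Every AROM+ array was far above every WT array, and the AROM+ arrays were spread more widely than the WT ones. The difference was 4.31 ± 0.29 (19.8-fold, limma, adjusted p = 0.00124), and only 6.86% of all genes were called at least 2-fold higher. The probe was well above background on all 6 arrays, dim as it was in WT. The difference was 3.71 with normexp background correction and 4.64 without AROM+ replicate 3. Some genes of the macrophage, fibroblast, endothelial, Leydig, Sertoli and peritubular lists described above were also called higher. The part of any of these cells in the Hspb8 rise was not tested. Bag3 was lower in AROM+, where it read 1.26, 1.42 and 1.15, against 1.77, 1.58 and 1.86 in WT (−0.46 ± 0.11, limma, adjusted p = 0.0157); this call was lost with quantile normalization (−0.32), with a replicate block (−0.46), or on leaving out WT 1 (−0.44) or WT 3 (−0.40).

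The 200 bases before the start of Hspb8 (RefSeq, GRCm38.p6, minus strand, chr5:116422865-116423064) are shown because this gene moved most. They hold none of the 3 motifs searched, which are spelled out below.

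Hspb8 upstream: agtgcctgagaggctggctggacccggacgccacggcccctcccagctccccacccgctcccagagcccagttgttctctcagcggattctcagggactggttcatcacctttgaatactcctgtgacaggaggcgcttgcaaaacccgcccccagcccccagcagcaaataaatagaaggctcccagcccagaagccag

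The other Hspb genes did not follow Hspb8. Of 8 tested, Hspb8 among them, 1 was called higher, which was Hspb8 itself, and 3 lower (12.5% and 37.5%, against 19.9% and 32.6% of all genes). Hspb7, known from heart and muscle, read −1.11, −1.12 and −1.06 in WT and −1.89, −1.78 and −1.97 in AROM+, a fall without overlap (−0.78 ± 0.09, limma, adjusted p = 0.00259). Hspb6, a small heat shock protein of muscle, read 2.24, 2.23 and 2.18 in WT and 1.80, 1.93 and 1.92 in AROM+ (−0.33 ± 0.08, limma, adjusted p = 0.0147). Its call was lost with quantile normalization (−0.16), or on leaving out WT 1 (−0.32). Hspb11, also known as the intraflagellar transport protein Ift25, differed by −0.27 ± 0.08 (limma, adjusted p = 0.0249) on its brighter probe, and its other probe differed by 0.16 and was not called. That call was lost with normexp background correction (−0.24), with quantile normalization (−0.09), with the mean of its probes (−0.06), with a replicate block (−0.27), or on leaving out WT 1 (−0.28), WT 3 (−0.24), AROM+ 1 (−0.27) or AROM+ 2 (−0.26). Hspb1, the general small heat shock protein of stressed cells, was not called: WT arrays read 1.50, 1.69 and 1.43 and AROM+ arrays 1.53, 1.43 and 1.94, which overlap, with AROM+ replicate 3 the highest. Hspb2 and Hspb3, known from muscle, were dim and not called (0.11 and −0.07).

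The mitochondrial chaperonin genes Hspd1 and Hspe1 rose together. Hspd1 encodes the barrel of the folding chamber and Hspe1 its lid, and the genes lie head to head with starts 216 bases apart. Hspd1 read 1.56, 1.84 and 1.49 in WT and 2.52, 2.29 and 2.19 in AROM+. Hspe1 read 1.77, 1.97 and 1.80 in WT and 2.71, 2.46 and 2.48 in AROM+. In both, every AROM+ array was above every WT array, and AROM+ replicate 1 was the highest. The differences were 0.70 ± 0.13 for Hspd1 (1.63-fold, limma, adjusted p = 0.0075) and 0.70 ± 0.11 for Hspe1 (1.63-fold, limma, adjusted p = 0.00439). All 3 Hspe1 probes were called higher, at 0.97, 0.78 and 0.70.

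Hspd1 has 1 probe (A_55_P1955587, chromosome 1, 55134697 to 55134756). The Hspe1 probes are at chromosome 1, 55147620 to 55147946, 55148023 to 55148082 and 55148026 to 55148085, all NCBI37/mm9. The last 2 lie 3 bases apart, so they are not independent. The first 30 bases of these probes are printed 5′ to 3′ to show how near to each other the last pair are. The printed letters of their overlap are not identical, since probe 2 has c where probe 3 has t in cttcc and tttcc. Which of them matches the gene exactly was not tested.

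Hspd1 probe: gtgggaatgattgtgtacaaagtagagaag
Hspe1 probe 1: ggcaccaaattagttctagacgacaaggat
Hspe1 probe 2: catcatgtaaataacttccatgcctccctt
Hspe1 probe 3: catgtaaataatttccatgcctccctttta

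The 215 bases between the starts (RefSeq, GRCm38.p6, plus strand, chr1:55087933-55088147) are shown because the genes share them. They hold the letters of a heat shock element, the site that heat shock factors bind, in capitals, as a run of matches on either strand. A match of letters is not a shown site.

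Hspd1 and Hspe1: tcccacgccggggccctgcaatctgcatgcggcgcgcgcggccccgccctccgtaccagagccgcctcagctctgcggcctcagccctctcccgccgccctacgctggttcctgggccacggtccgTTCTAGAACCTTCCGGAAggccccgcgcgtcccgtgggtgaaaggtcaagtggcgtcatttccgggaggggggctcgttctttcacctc

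**Figure D2:**
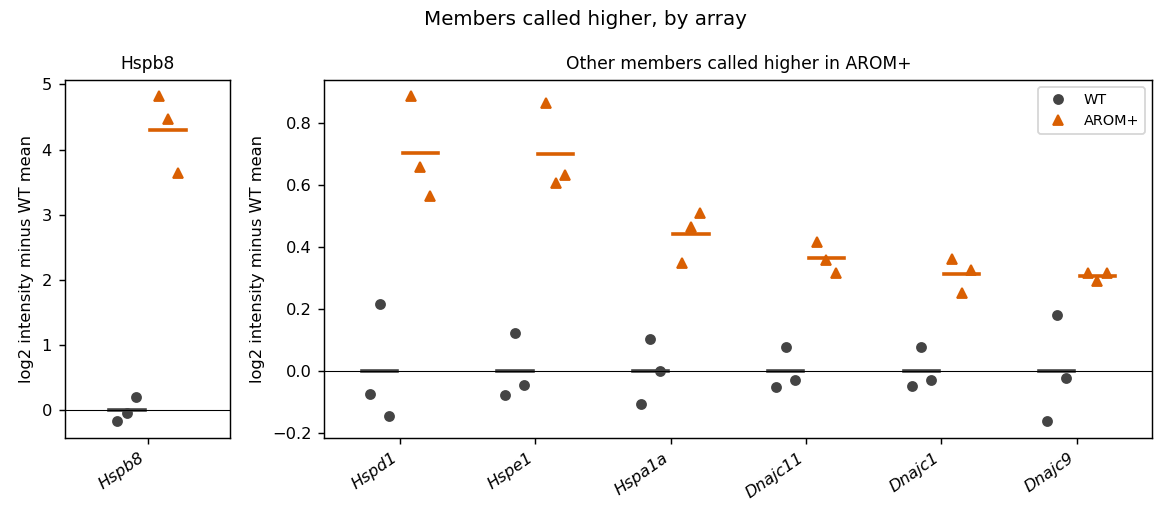
Log2 intensity minus the mean of the WT arrays (vertical axis) for the 7 genes called higher, with circles for the 3 WT arrays, triangles for the 3 AROM+ arrays and bars at the group means, and with Hspb8 on an axis of its own. In each gene the AROM+ arrays lie above all WT arrays, by 4.31 on average in Hspb8 and by 0.31 to 0.70 in the other genes.

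Among the other mitochondrial members, Dnajc11 was higher and Dnajc28 and Dnajc15 lower. Of the 9 mitochondrial genes tested, 3 were called higher and 2 lower (33.3% and 22.2%, against 19.9% and 32.6% of all genes). Dnajc11, a J protein of the mitochondrial outer membrane, read −1.40, −1.27 and −1.38 in WT and −0.94, −0.99 and −1.04 in AROM+ (0.36 ± 0.08, limma, adjusted p = 0.0121). Its other probe differed by −0.29 and was not called, and the call was lost with the mean of its probes (0.04), or on leaving out WT 1 (0.34). Dnajc28 had the largest fall of the 70 genes: WT arrays read −0.53, −0.41 and −0.58 and AROM+ arrays −1.27, −1.46 and −1.81, a difference of −1.004 ± 0.15 (2.01-fold lower, limma, adjusted p = 0.00407), with all AROM+ arrays below all WT arrays. Dnajc15, a J protein of the mitochondrial inner membrane that is linked to protein import, fell by a smaller amount (−0.35 ± 0.08, limma, adjusted p = 0.0151). Its call was lost with normexp background correction (−0.26), with quantile normalization (−0.14), or on leaving out WT 3 (−0.34). Hspa9, the HSP70 of mitochondria, was not called and its groups overlapped (−0.05), and neither was its J partner Dnaja3 (0.11).

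Among the HSP70 genes the germ-cell forms Hspa1l and Hspa2 were lower and the stress-inducible Hspa1a was higher. Hspa1a encodes the HSP70 that rises most with heat. Its 1 probe (A_55_P2068459, chromosome 17, 35107117 to 35107176, NCBI37/mm9) also lists Hspa1b, the near-identical neighbour gene, so the value stands for Hspa1a and Hspa1b together. It read −1.98, −1.77 and −1.87 in WT and −1.53, −1.41 and −1.37 in AROM+ (0.44 ± 0.09, 1.36-fold, limma, adjusted p = 0.0103), and no array of one group overlapped the other group. Hspa1l, the copy made in spermatids, read 3.29, 3.09 and 3.36 in WT and 2.81, 2.87 and 2.75 in AROM+ (−0.44 ± 0.10, limma, adjusted p = 0.0121), with no overlap. Its call was lost with quantile normalization (−0.22).

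Hspa1a and Hspa1l are neighbours that are read away from each other, with starts 547 bases apart on chromosome 17, and they went opposite ways. The 150 bases before each start are shown for this (RefSeq, GRCm38.p6, Hspa1a on the minus strand at chr17:34972157-34972306 and Hspa1l on the plus strand at chr17:34972553-34972702), each printed 5′ to 3′ toward its own gene. The 300-base windows of Hspa1a and Hspa1b differ at only 4 positions, which makes them 98.7% identical.

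Hspa1a upstream: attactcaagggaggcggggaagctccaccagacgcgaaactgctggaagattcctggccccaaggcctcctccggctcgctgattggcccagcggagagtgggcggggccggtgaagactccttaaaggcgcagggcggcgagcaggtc
Hspa1l upstream: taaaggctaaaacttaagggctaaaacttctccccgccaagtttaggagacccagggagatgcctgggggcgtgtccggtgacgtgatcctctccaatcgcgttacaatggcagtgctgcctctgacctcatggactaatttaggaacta

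Hspa2, the HSP70 that spermatocytes need to finish meiosis, was bright and lower in AROM+: WT arrays read 4.07, 4.06 and 3.94 and AROM+ arrays 3.57, 3.77 and 3.74. The fall (−0.33 ± 0.09, 1.26-fold lower, limma, adjusted p = 0.0249) was called, and was lost with normexp background correction (−0.24), with quantile normalization (−0.12), with a replicate block (−0.33), or on leaving out WT 1 (−0.31), WT 2 (−0.31) or AROM+ 1 (−0.27). Hspa8, the HSP70 that all cells make, read 3.39, 3.58 and 3.30 in WT and 3.55, 3.69 and 3.81 in AROM+, which overlap (0.26 ± 0.11, limma, adjusted p = 0.0995). Hspa8 was called higher with quantile normalization (0.48), with the mean of its probes (0.28), or with array weights (0.29), and another Hspa8 probe was called higher (0.46). Hspa4l and Hspa4, which reload HSP70 with ATP, differed by −0.31 ± 0.09 (called, limma, adjusted p = 0.0241) and −0.23 ± 0.09 (not called, limma, adjusted p = 0.0609). The call of Hspa4l was lost with quantile normalization (−0.15), with a replicate block (−0.31), or on leaving out WT 1 (−0.34), WT 3 (−0.27) or AROM+ 1 (−0.27). Hspa4 was called lower with normexp background correction (−0.35), after centring on the gene median (−0.33), with an eBayes trend (−0.23), with array weights (−0.26), or on leaving out AROM+ 3 (−0.29). The Hspa4 probes disagreed: its fitted probe gave a negative difference and another was called higher (0.38), and with the mean of its probes the difference was 0.28. Hsph1, heat-inducible and of the same kind, was lower: it read 1.20, 1.32 and 1.42 in WT and 0.69, 1.01 and 0.77 in AROM+ (−0.49 ± 0.11, limma, adjusted p = 0.0138), a call lost with the mean of its probes (−0.33), or on leaving out WT 3 (−0.43).

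Among the other HSP70 genes, named here for their role after their values were seen, Hspa12a read −2.17, −1.85 and −1.95 in WT and −0.69, −0.57 and −1.91 in AROM+. AROM+ replicate 3 lay with the WT arrays and the other 2 AROM+ arrays lay above them, and the difference was not called (0.93 ± 0.35, limma, adjusted p = 0.0597). It was called higher with normexp background correction (0.91), with an eBayes trend (0.93), with array weights (1.20), or on leaving out AROM+ 3 (1.36). Hspa14, a ribosome-bound HSP70, was above WT on all AROM+ arrays and not called (0.28 ± 0.11, limma, adjusted p = 0.0621). It was called with array weights (0.34), or on leaving out WT 2 (0.35) or AROM+ 1 (0.35). Hspa13, an HSP70 of the ER, read −1.15, −0.80 and −0.77 in WT and −2.14, −0.52 and −0.64 in AROM+. Its AROM+ replicate 1 lay far below all other arrays and the groups overlapped (−0.19, not called); without that array the difference was 0.33.

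Of the 10 germ-cell isoforms, 7 were called lower and 0 higher, and all 10 differences were negative, with a median of −0.36. In 9 of them (90.0%, against 40.2% of all genes) the AROM+ arrays lay below all WT arrays. The 9 include Hspb9, which has 2 AROM+ arrays and passed the filter through WT only. With fewer arrays a lack of overlap is easier to reach. The share called lower was 70.0%, against 32.6% of all genes. The count called lower was 4 without WT replicate 1, and with quantile normalization 9 of the 10 were negative but only 2 were called. The spermatid and spermatocyte genes described above fell with this group, and their part in it was not tested. Dnajb13, a J protein of the sperm flagellum, had the most marked fall after Dnajc5g: WT arrays read 3.75, 3.63 and 3.61 and AROM+ arrays 3.13, 3.06 and 3.05 (−0.58 ± 0.08, limma, adjusted p = 0.00375; −0.37 with quantile normalization). Dnajc5g, a testis form of the cysteine string protein, read 2.90, 2.92 and 2.87 in WT and 2.26, 2.40 and 2.11 in AROM+ (−0.64 ± 0.10, limma, adjusted p = 0.00432). Dnajb7 (−0.48 ± 0.09, limma, adjusted p = 0.00681) and Dnajb8 (−0.38 ± 0.09, limma, adjusted p = 0.0136), a J protein known to keep polyglutamine proteins from clumping, were also called lower. The Dnajb7 call was lost with quantile normalization (−0.26), and the Dnajb8 call was lost with quantile normalization (−0.16), or on leaving out WT 1 (−0.35). Dnajb3 (−0.27 ± 0.10, limma, adjusted p = 0.0631), Dnajc5b (−0.15 ± 0.12) and Hspb9 were not called. Dnajb3 was called lower with normexp background correction (−0.34), after centring on the gene median (−0.37), or with an eBayes trend (−0.27), and Dnajc5b with normexp background correction (−0.34). Hspb9, a testis small heat shock protein, was fitted on 3 WT and 2 AROM+ arrays because the spot of AROM+ replicate 1 was an outlier: the arrays read 4.37, 4.65 and 4.24 in WT and 4.10 and 4.15 in AROM+ (−0.30 ± 0.14, limma, adjusted p = 0.134).

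**Figure D3:**
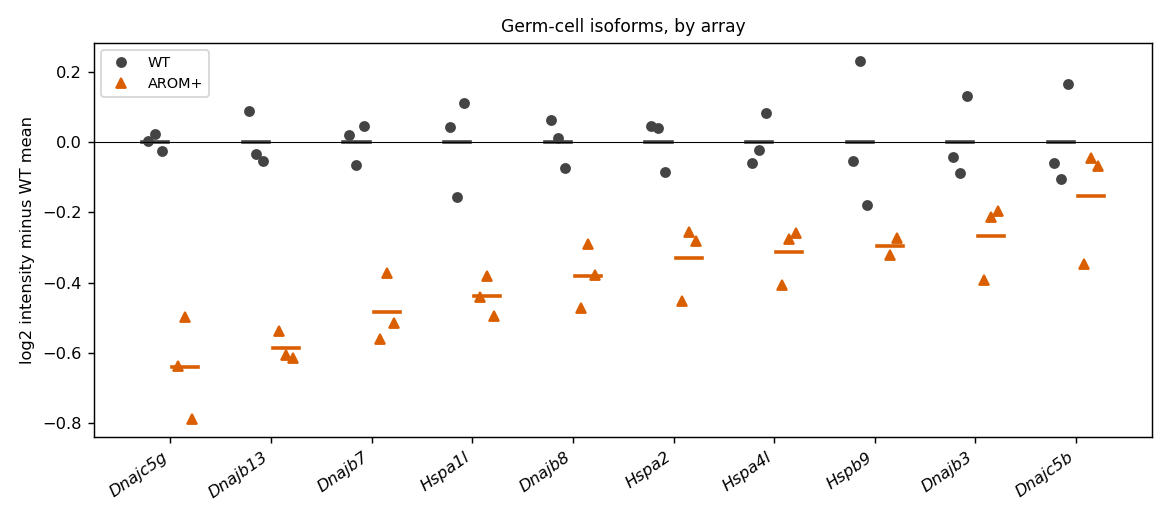
Log2 intensity minus the mean of the WT arrays (vertical axis) for the 10 germ-cell isoforms, ordered by difference, with circles for WT arrays, triangles for AROM+ arrays and bars at the group means; Hspb9 has 2 AROM+ arrays. The AROM+ arrays lie below the WT arrays in all genes but Dnajc5b, where they overlap.

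The first 30 bases of some of the probes behind the pairs compared next are printed to show which sequence was read for each gene; the Hspa1a probe is placed above and also lists Hspa1b. Coordinates are NCBI37/mm9: Hspa2 at A_55_P2080151, chromosome 12, 77507769 to 77507828, Hspa8 at A_55_P2069721, chromosome 9, 40612755 to 40613050, Hspa1l at A_51_P340747, chromosome 17, 35115629 to 35115688, Dnajb13 at A_51_P450169, chromosome 7, 107654635 to 107654694, and Dnajc5g at A_52_P15522, chromosome 5, 31414375 to 31414434.

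Hspa2 probe: ctgtggaagcttggttacactaagacacag
Hspa8 probe: atcagctggctggataagaaccagagtgca
Hspa1a probe: tgacaagaagaaggtgctggacaagtgcca
Hspa1l probe: gtccgataaaaataaaatactggataaatg
Dnajb13 probe: aagacagatattcttctaccatcaaggaca
Dnajc5g probe: caggagctgttgcaccaattagtcctcctt

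Each germ-cell isoform was also set against its somatic counterpart within each array, and the change of this log2 ratio between the groups was tested over arrays (exact two-sided permutation test). With 3 arrays against 3 the smallest p is 0.1, so no pair can pass 0.05. The ratio of Hspa1l to Hspa1a changed by −0.88 and that of Hspa2 to Hspa8 by −0.59. That of Dnajc5g to Dnajc5 changed by −0.54, that of Hspb9 to Hspb1 by −0.44 (5 arrays) and that of Dnajb13 to Dnajb1 by −0.35. In each of these 5 pairs the AROM+ ratios lay below all WT ratios (exact permutation p = 0.1, adjusted over the 10 pairs 0.2). The Hspb9 ratio changed by −0.21 without AROM+ replicate 3 and by −0.67 without AROM+ replicate 2. In the other 5 pairs the groups overlapped: Dnajb3 to Dnajb6 changed by 0.12, Dnajb7 to Dnajb6 by −0.09, Hspa4l to Hspa4 by −0.08, Dnajc5b to Dnajc5 by −0.06 and Dnajb8 to Dnajb6 by 0.01 (exact permutation p from 0.3 to 1.0). The Dnajb8, Dnajc5b and Hspa4l pairs changed sign under some alternatives. The change of the Hspa4l to Hspa4 ratio also depends on which Hspa4 probe is read. With the mean of its probes Hspa4 was at 0.28, while Hspa4l, which has 1 probe, was at −0.31, so the ratio fell more.

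**Figure D4:**
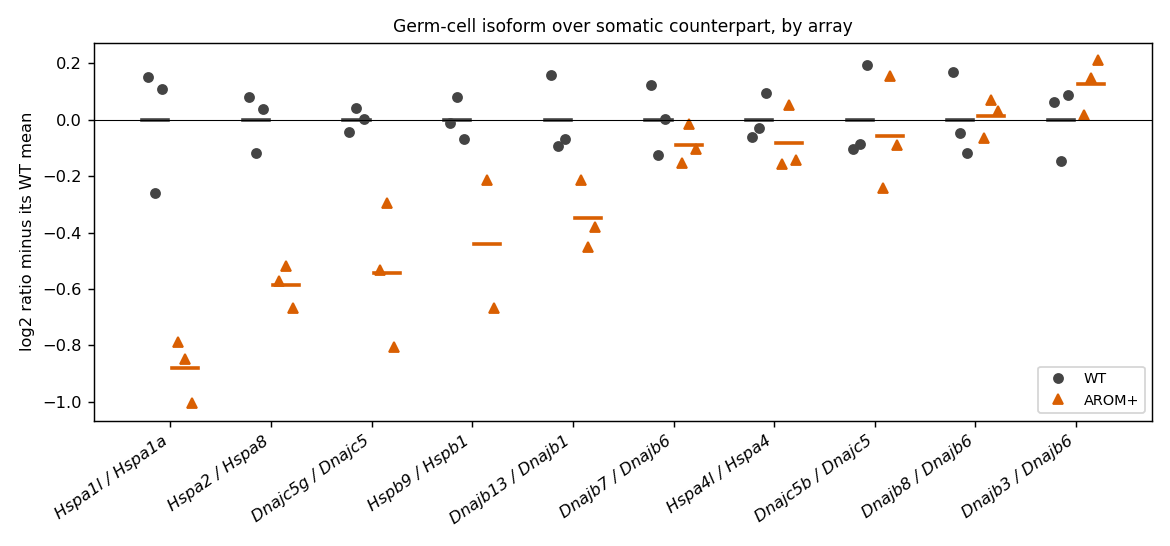
Log2 ratio of a germ-cell isoform to its somatic counterpart within each array, minus the mean ratio of the WT arrays (vertical axis), for 10 pairs ordered by change, with circles for WT arrays, triangles for AROM+ arrays and bars at the group means. In the 5 pairs on the left the AROM+ arrays lie below all WT arrays, by 0.35 to 0.88 on average, and in the other 5 they overlap.

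The somatic counterparts as a group did not move one way: of 10 tested, 2 were called higher (Hspa1a and Hspb8) and 3 lower (20% and 30%, against 19.9% and 32.6% of all genes), with a median of −0.16. That median was 0.05 with quantile normalization. Dnajb2, a J protein that binds ubiquitin, read 1.85, 1.86 and 1.85 in WT and 1.11, 1.34 and 0.93 in AROM+, without overlap (−0.72 ± 0.12, limma, adjusted p = 0.00494). Both of its probes were called lower. Dnajb6, which keeps polyglutamine proteins soluble, read 2.998, 3.16 and 3.14 in WT and 2.69, 2.74 and 2.69 in AROM+ (−0.39 ± 0.08, limma, adjusted p = 0.0103), and its call was lost with quantile normalization (−0.18). Hspb6 is given above. Dnajb1, the J protein that pairs with heat-induced HSP70, read 3.77, 3.90 and 3.85 in WT and 3.52, 3.69 and 3.61 in AROM+ and was not called (−0.24 ± 0.09, limma, adjusted p = 0.0573), although all AROM+ arrays were below all WT arrays. It was called lower after centring on the gene median (−0.34), or with an eBayes trend (−0.24). Dnajc5, the cysteine string protein of nerve endings, was not called (−0.10).

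Other DnaJ genes also fell. Dnaja4 read 2.47, 2.21 and 2.52 in WT and 1.77, 1.87 and 1.32 in AROM+, with AROM+ replicate 3 the lowest (−0.75 ± 0.17, limma, adjusted p = 0.0119); its other probe differed by −0.10 and was not called, and the mean of its probes gave −0.43. Dnajc2, a J protein of the ribosome, read 3.45, 3.27 and 3.52 in WT and 2.73, 2.70 and 2.76 in AROM+ (−0.68 ± 0.09, limma, adjusted p = 0.00363). Its other probe was well above background on the 3 WT arrays and on 0 AROM+ arrays, so it was kept only through WT and adds no support. Dnajb4, a heat-inducible J protein, read 3.51, 3.47 and 3.59 in WT and 2.99, 3.06 and 2.94 in AROM+ (−0.53 ± 0.08, limma, adjusted p = 0.00446; −0.31 with quantile normalization). Dnajc4 was called lower too (−0.41 ± 0.10, limma, adjusted p = 0.016), a call lost with quantile normalization (−0.17). Of the smaller falls, those of Dnajc27 (−0.56), Dnajc22 (−0.50), Dnajb5 (−0.33), Dnajc21 (−0.31), Dnajc18 (−0.31) and Dnajc16 (−0.26) were each lost under at least 1 alternative. The call of Dnajc27 was lost on leaving out WT 3 (−0.47), and that of Dnajb5 with the mean of its probes (−0.26), with a replicate block (−0.33), or on leaving out WT 1 (−0.33) or WT 3 (−0.33). That of Dnajc22 was lost with normexp background correction (−0.39), with quantile normalization (−0.50), with the deposited log2 table (−0.48), without a filter on dim probes (−0.50), with an eBayes trend (−0.50), or on leaving out WT 1 (−0.49), WT 2 (−0.45), WT 3 (−0.56) or AROM+ 3 (−0.31). That of Dnajc21 was lost with quantile normalization (−0.09), with the mean of its probes (−0.26), with a replicate block (−0.31), or on leaving out WT 1 (−0.29), WT 3 (−0.30) or AROM+ 1 (−0.24). That of Dnajc18 was lost with normexp background correction (−0.27), with quantile normalization (−0.09), with a replicate block (−0.31), or on leaving out WT 1 (−0.31), WT 3 (−0.27), AROM+ 1 (−0.25) or AROM+ 3 (−0.32). That of Dnajc16 was lost with normexp background correction (−0.22), with quantile normalization (−0.20), with the deposited log2 table (−0.24), without a filter on dim probes (−0.26), with a replicate block (−0.26), or on leaving out WT 1 (−0.24), WT 2 (−0.23), WT 3 (−0.32), AROM+ 1 (−0.23), AROM+ 2 (−0.30) or AROM+ 3 (−0.26). Dnajc9, a J protein that also escorts histones, was called higher (0.31 ± 0.11, limma, adjusted p = 0.0476), a call lost with scaling to bright probes (0.29), with centring on the gene median (0.21), without a filter on dim probes (0.31), with a replicate block (0.31), or on leaving out WT 1 (0.23), WT 3 (0.30), AROM+ 1 (0.30), AROM+ 2 (0.32) or AROM+ 3 (0.30).

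In the endoplasmic reticulum (ER), 4 J proteins were called and the main chaperones Hspa5 and Hsp90b1 were not. Of 10 ER members tested 1 was called higher and 3 lower (10.0% and 30%, against 19.9% and 32.6% of all genes). Dnajb9, a J protein that holds the stress sensor Ern1 in check, read 2.28, 2.21 and 2.36 in WT and 1.64, 1.64 and 1.40 in AROM+ (−0.73 ± 0.10, limma, adjusted p = 0.00363); its other probe differed by −0.30 and was not called. Dnajb12, which helps in the disposal of ER membrane proteins, read 1.44, 1.19 and 1.42 in WT and 0.96, 0.81 and 0.63 in AROM+ (−0.55 ± 0.12, limma, adjusted p = 0.0112). Dnajb14, its close relative, gave 2 opposite answers: its brighter probe (chromosome 3, 137571429 to 137571488, NCBI37/mm9) differed by −0.52 ± 0.11 and its dimmer one (137579462 to 137579521) by 0.50, both called. The fall was lost with quantile normalization (−0.31), or with the mean of its probes (−0.01). The probes are shown since the gene's direction depends on which is read.

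Dnajb14 brighter probe: gataagctgggtcccacctgctcctttctg
Dnajb14 dimmer probe: tgtctttcagtctctgtaatttatctcaac

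Dnajc1, a J protein of the ER membrane, was higher: WT arrays read 0.48, 0.60 and 0.50 and AROM+ arrays 0.89, 0.78 and 0.85 (0.31 ± 0.08, limma, adjusted p = 0.0196). Its call was lost with centring on the gene median (0.21), with a replicate block (0.31), or on leaving out WT 1 (0.29), WT 3 (0.30) or AROM+ 1 (0.29). Hspa5 (BiP), the HSP70 of the ER, read 2.78, 2.76 and 2.78 in WT and 2.57, 2.66 and 2.74 in AROM+ and was not called (−0.12 ± 0.08, limma, adjusted p = 0.271). Hsp90b1, the HSP90 of the ER, was not called (−0.23 ± 0.08, limma, adjusted p = 0.0574), although all AROM+ arrays were below all WT arrays. It was called lower after centring on the gene median (−0.33), with an eBayes trend (−0.23), with array weights (−0.24), or on leaving out AROM+ 3 (−0.28). Dnajc10, which breaks disulfide bonds in misfolded ER proteins, was not called on its brighter probe (0.05), and its other probe was called lower (−0.54). Dnajc25 was not called on its brighter probe (0.08) and was called higher on the other (0.66) and with the mean of its probes (0.37).

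Transcripts of the sensors of the unfolded protein response, the programme that raises ER chaperones when proteins misfold, were higher in AROM+. These are RNA levels, and whether the response was active was not measured. Of 16 genes of that response tested, 6 were called higher and 3 lower (37.5% and 18.8%, against 19.9% and 32.6% of all genes). Atf6, a membrane-held factor, read −2.61, −2.41 and −2.60 in WT and −1.68, −1.63 and −1.64 in AROM+ (0.89 ± 0.09, limma, adjusted p = 0.00221). The kinase Eif2ak3 (PERK) differed by 0.69 ± 0.10 (limma, adjusted p = 0.00396) and Ern1 (IRE1) by 0.66 ± 0.13 (limma, adjusted p = 0.00814). Xbp1, the factor that IRE1 switches on, read 0.63, 0.82 and 0.63 in WT and 1.50, 1.26 and 1.39 in AROM+ (0.69 ± 0.10, limma, adjusted p = 0.00405). Trib3 rose by 1.16 ± 0.34 (2.23-fold, limma, adjusted p = 0.0288), with AROM+ replicate 1 far above the others. Without that array the rise was 0.73 and called, and the call was lost on leaving out WT 1 (1.17), WT 2 (1.18) or WT 3 (1.12). Ddit3 (CHOP), a factor of the same response that promotes cell death, was lower (−0.45 ± 0.09, limma, adjusted p = 0.00943). Of the ER proteins in the list, Creld2 (−0.44) and Sdf2l1 (−0.27) were called lower and Pdia4 (0.40) higher. Atf4, Herpud1, Manf, Pdia6, Calr, Canx and Ppp1r15a were not called. With quantile normalization 7 of the 16 were called higher and 0 lower, so the calls of Ddit3, Creld2 and Sdf2l1 were lost. Ern1, Ddit3 and these ER proteins were named after their values were seen. They were not followed one by one through the alternatives. Some genes of the macrophage, fibroblast, endothelial, Leydig, Sertoli and peritubular lists described above were also called higher. The part of any of these cells in the rise of the sensors was not tested.

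Promoters were read for the letters of these response pathways. RefSeq (GRCm38.p6) windows from 250 bases before to 50 after a start were found for 57 of the 71 genes, and 3 motifs were searched on both strands. The heat shock element (GAA, 2 free bases, TTC, 2 free bases and GAA) was in 4 of the 57 (7.02%), against 0.662% of all genes with a window: Hspd1 and Hspe1, both called higher, and Dnajb6 and Hsph1, both called lower. The run printed above between the starts of Hspd1 and Hspe1 lies in the windows of both and is counted for each. The ER stress element (CCAAT, 9 free bases and CCACG) was in 3 of the 57 (5.26%), against 0.137%: Hspa5, Hsp90b1 and Dnajc3, none of them called. The cyclic AMP response element TGACGTCA was in 1 of the 57 (1.75%, against 2.03%), Dnajc27. No window of Hspa1a held a heat shock element in these letters. A match is a description, and no match says only that these letters are not in the window.

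The matches in Dnajb6 and in the 3 ER genes are printed with up to 20 bases on either side (GRCm38.p6). The motif is in capitals. The fixed letters of the ER stress element are the same in the 3 ER genes because they were searched for. The free bases between those letters differ from gene to gene. Dnajb6 lies at chr5:29735832-29735884 (plus strand), Hspa5 at chr2:34772005-34772063 (plus), Hsp90b1 at chr10:86705618-86705676 (minus) and Dnajc3 at chr14:118937807-118937865 (plus).

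Dnajb6: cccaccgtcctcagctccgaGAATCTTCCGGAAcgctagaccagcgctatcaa
Hspa5: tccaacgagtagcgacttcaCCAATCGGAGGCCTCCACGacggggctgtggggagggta
Hsp90b1: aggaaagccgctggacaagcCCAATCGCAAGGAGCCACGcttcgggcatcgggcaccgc
Dnajc3: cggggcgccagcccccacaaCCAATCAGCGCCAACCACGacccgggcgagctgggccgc

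The heat-inducible members went both ways, 3 called higher (Hspa1a, Hspd1 and Hspe1) and 2 lower (Dnajb4 and Hsph1) of 11 tested (27.3% and 18.2%, against 19.9% and 32.6% of all genes), with a median of −0.14. Hsf1, the main heat shock factor, was not called and read −0.08, −0.08 and −0.10 in WT and −0.13, −0.12 and −0.10 in AROM+, which overlap. The cytosolic HSP90 genes Hsp90aa1 (−0.14 ± 0.12, limma, adjusted p = 0.327) and Hsp90ab1 (0.15 ± 0.12, limma, adjusted p = 0.312) were not called either, and Hsp90ab1 was called higher with quantile normalization (0.37). Hsp90aa1, the form known from spermatocytes, read 3.88, 3.87 and 3.94 in WT and 3.54, 3.76 and 3.94 in AROM+, and AROM+ replicate 1 was the lowest.

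Of 47 other chaperone genes outside the naming rule, such as HSP70 release factors, HSP90 helpers and the cytosolic chaperonin, 2 were called higher and 17 lower (4.26% and 36.2%, against 19.9% and 32.6% of all genes), with a median of −0.23. The count of falls was 9 without WT replicate 1, 6 without WT replicate 3, 9 with the replicate block, 3 with quantile normalization and 26 with centring on the gene median. Serpinh1, the collagen chaperone HSP47, was the largest rise: WT arrays read −0.99, −0.95 and −0.93 and AROM+ arrays 0.89, 0.14 and 0.37 (1.42 ± 0.19, 2.68-fold, limma, adjusted p = 0.00339). The 6 fibroblast and matrix genes described above rose with it, as did some genes of the other somatic cell lists. The part of these cells was not tested. Cryaa, a lens small heat shock protein, was dim and also called higher (0.68 ± 0.11, limma, adjusted p = 0.00442), by 0.30 with normexp background correction. Unc45b, a myosin chaperone of muscle, was lower (−0.80 ± 0.22, limma, adjusted p = 0.0227), a call lost with a replicate block (−0.80), or on leaving out WT 2 (−0.76), WT 3 (−0.75) or AROM+ 2 (−0.76).

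**Figure D5:**
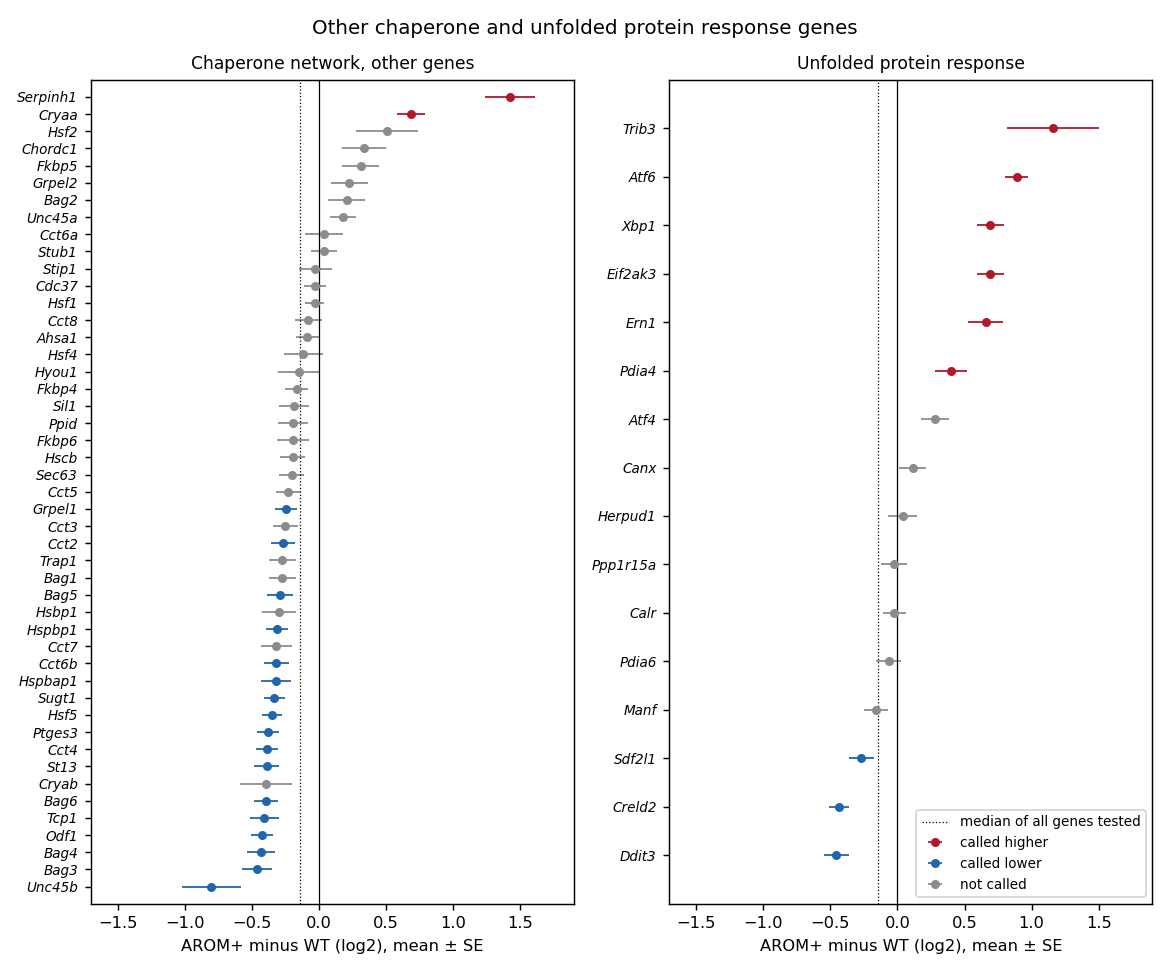
Difference between AROM+ and WT (log2, horizontal axis, mean ± SE from limma, 3 arrays per group) of 47 other chaperone genes on the left and 16 genes of the unfolded protein response on the right, coloured by call; the dotted line is the median of all genes tested, −0.14. Most of the left panel lies below 0, with Serpinh1 at 1.42 the exception at the top, and Trib3, Atf6, Xbp1 and Eif2ak3 lead the right panel.

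The other 16 tested genes were not called and lay between −0.23 and 0.30, with a smallest adjusted p of 0.0769. Dnajc14 was among them, at 0.30 on its brighter probe and 0.40 on another that was called. Dnajc6, the 1 member not tested, was well above background on 2 WT arrays and 1 AROM+ array only. Hspa12b, an HSP70 relative known from vessels, was not called (−0.24 ± 0.10, limma, adjusted p = 0.0791); it was called lower after centring on the gene median (−0.34).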

How the data were processed

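Gene expression in 6 whole testes was read on one-colour (Cy3) Agilent arrays. The authors deposited scanner output of Agilent Feature Extraction (10.7.3.1 per the file headers, 10.10 per the submitters' processing notes). Per the file headers its processed signal is an intensity after background correction. The authors also deposited a table of log2 values, used as an alternative. Its columns follow log2 of the processed signal (slope 1.00) minus a constant per array.

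Control spots (3671 of 62976 per array) and outlier spots (123 to 192) were left out, and processed signals were divided by each array's 75th percentile (intensity 3696 to 5431) and put on a log2 scale. Spots of a probe were averaged. A probe was kept where 1 or both groups had it well above background on every array, and a gene was read by its kept probe of highest mean. Probe coordinates are NCBI37/mm9. Members were taken by the file's gene name. Other probes were named through RefSeq of GRCm38.p6: 26161 by accession, 3752 by symbol and 623 by synonym, while 702 with several genes and 24443 without a match were not named. The comparison used limma 3.58.1 (lmFit, eBayes, Benjamini-Hochberg, 0.05) with R 4.3.3. Fits required at least 2 arrays per group.

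The members and lists were chosen with earlier results of these data known. Genes were named by rule: the germ-cell and somatic lists, called members changed at least 2-fold, the 8 largest rises and falls among called members, up to 3 called members of each other list and 4 of each list outside the members, and members whose probes were called in opposite directions. Other members, and Ern1, Ddit3 and Hsf1, were named for their role after their values were seen.

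In a test on simulated data for AROM+ against WT, with 200 of 18856 genes changed, the share of genes that limma recovered was 18% at a log2 change of 0.5, 80% at 1, 94% at 2 and 100% at 4, with 7 false calls among 153. In the data 52.4% of all genes were called, a far larger share than was changed in the simulation. The cutoff of the adjusted p therefore differs, and these shares do not give the recovery of the comparison itself. The number of arrays limits the precision. Alternatives were normexp (offset 50), quantile normalization, other scalings, the deposited log2 table, other probe filters, the mean of a gene's probes, a replicate block, an eBayes trend, array weights and leaving out each array.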

Additional observations from a re-analysis of the deposited data

How the results depend on the processing

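Over 62 genes followed through 17 alternatives, 911 of 1053 values kept their direction and side of the threshold, 99 lost a call, 28 gained one and 15 changed sign. None of the sign changes was in a gene called in the main comparison, and 14 of the 35 called members kept their call throughout. The cause of the moves below was not tested. With quantile normalization the members called lower were 13 (median −0.041), germ-cell isoforms 2 (median −0.16), somatic counterparts 1 (median 0.054), mitochondrial genes 1, small heat shock genes 1, other chaperone genes 3 and unfolded protein response genes 0. With centring on the gene median these were: member median −0.31, germ-cell median −0.45, somatic counterparts 5 lower (median −0.26), heat-inducible genes 5 lower, ER genes 0 higher, mitochondrial genes 4 lower and other chaperone genes 26 lower. With array weights 11 members and 5 other chaperone genes were called higher. With an eBayes trend 5 somatic counterparts and 4 heat-inducible genes were called lower. With normexp 1 mitochondrial gene was called lower, and averaging each gene's probes 1 heat-inducible gene was (somatic median −0.073).

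Replicate numbers did not pair the samples (same-number correlations of deviations 0.02, −0.24 and 0.00). With the replicate block ER genes called higher were 0 and other chaperone genes called lower were 9.

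Leaving out each array gave 4 to 8 members higher and 18 to 27 lower, with a median of −0.24 to −0.18. Germ-cell isoforms called lower were 4 to 7. Somatic counterparts called lower were 2 to 4 (median −0.20 to −0.11). Heat-inducible genes lower were 1 to 3, ER genes higher 0 to 1, mitochondrial genes lower 1 to 2, small heat shock genes lower 1 to 3 and other chaperone genes lower 6 to 17. The Dnajb8 to Dnajb6 ratio changed by −0.048 to 0.095 and the Dnajc5b to Dnajc5 ratio by −0.16 to 0.038.

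The signs that turned were those of genes and ratios not called in the main comparison. Dnajc10 averaged over its probes was itself called lower (limma, adjusted p = 0.0336). With quantile normalization Dnajc5 was at 0.12, Dnajc5b at 0.070, Hsp90aa1 at 0.065, Hspa5 at 0.10 and Hspa9 at 0.17. With centring Dnajc10 was at −0.046, Dnajc25 at −0.014 and Hspb1 at −0.0070. Averaging each gene's probes Dnajc10 was at −0.25 and Hspa4 at 0.28, the Dnajb8 to Dnajb6 ratio at −0.021 and the Dnajc5b to Dnajc5 ratio at 0.022. With array weights Hspa13 was at 0.13 and Hspa9 at 0.060. With normexp the Hspa4l to Hspa4 ratio was at 0.043 and the Dnajb8 to Dnajb6 ratio at −0.0016. Leaving out each array put Hspa9 at −0.15 to 0.018 (turned without WT replicate 2), Hspa13 at −0.48 to 0.33 (turned without AROM+ replicate 1) and Hspb1 at −0.060 to 0.19 (turned without AROM+ replicate 3). Dim probes such as Hspb8 in WT limit how closely a fold can be given.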

Other observations

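Other genes of the chaperone network are named here after their values were seen. Of the 47 in that list 36.2% were called lower, near the 32.6% of all genes. The share called higher was 4.26%, against 19.9%. The BAG proteins release substrates from HSP70, and of the 6 measured Bag4 (−0.43 ± 0.11, limma, adjusted p = 0.0151), Bag6 (−0.39 ± 0.09, limma, adjusted p = 0.0114), Bag5 (−0.29 ± 0.10, limma, adjusted p = 0.0417) and Bag3 were called lower. Bag1 (−0.27) and Bag2 (0.21) were not called. Of the cytosolic chaperonin that folds actin and tubulin, Tcp1 (−0.41), Cct4 (−0.38), Cct2 (−0.27) and the testis form Cct6b (−0.32) were called lower, and Cct3, Cct5, Cct6a, Cct7 and Cct8 were not called (−0.32 to 0.04). Odf1, a small heat shock protein of the sperm tail, read 4.11, 4.05 and 3.98 in WT and 3.64, 3.65 and 3.56 in AROM+, without overlap (−0.43 ± 0.08, limma, adjusted p = 0.00752). Among heat shock factors Hsf5 was called lower (−0.35 ± 0.07, limma, adjusted p = 0.00954), and Hsf1 (−0.03), Hsf2 (0.51) and Hsf4 (−0.12) were not called.

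In the unfolded protein response the ER proteins Creld2 (−0.44 ± 0.07, limma, adjusted p = 0.00528) and Sdf2l1 (−0.27 ± 0.09, limma, adjusted p = 0.0445) were called lower and the disulfide isomerase Pdia4 was called higher (0.40 ± 0.12, limma, adjusted p = 0.0281). Calr and Canx, which hold sugar-bearing proteins in the ER, were not called (−0.03 and 0.11). Apart from Bag3, the genes of this section were not followed one by one through the alternatives. With quantile normalization 3 of the 47 other chaperone genes and 0 of the 16 unfolded protein response genes were called lower. The calls of Creld2 and Sdf2l1 were thus lost there. The call counts of these lists moved with scaling and with single WT arrays, as given for the lists above.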
